A study of Rattus norvegicus with 8 samples.

Results

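Cytochrome c oxidase, the last complex of the respiratory chain, has several nuclear-encoded subunits that exist as a pair of isoforms from separate genes, and the transcripts of 8 such genes were followed in the 2 layers of rat extraocular muscle. The genes were chosen by role: Cox4i1 and Cox4i2, Cox6a1 and Cox6a2, Cox7a1 and Cox7a2, and Cox8a and Cox8b. Every probe set whose annotation named exactly 1 of these 8 genes was taken, which gave 8 of the 15866 probe sets that are not controls. For 7 genes the probe set was annotated to that gene alone. The remaining one was annotated to both Cox7a2 and Cox7a2l2, so it is called the Cox7a2/Cox7a2l2 probe set and its signal is given to neither gene. The sequence it is listed under is a Cox7a2 transcript in RefSeq.

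Extraocular muscle moves the eye, and its fibres lie in an orbital layer facing the bone and a global layer facing the globe. Tissue of adult rats was cut from each layer with a laser, giving 4 global and 4 orbital captures, and the amplified RNA of each was hybridised to 1 array. No treatment or genotype separates the groups, and the sources used here give no strain, sex or number of animals. The labels do not tie captures to animals, so p-values reflect the variation among these captures alone and are too small if any of them came from the same animal. Orbital captures 3 and 4 have nearly the same title code (R3OL1 and R3OL1.2) and may be 1 sample run again, though the SD of their log2 difference over tested probe sets, 0.458, was no smaller than the 0.425 to 0.449 of the other 5 orbital pairs. Counted as 1 sample, Cox6a1 had an adjusted p of 0.0128 and Cox8a of 0.0432 in limma. A capture holds every cell type of the cut area, and more cells of a type and more RNA per cell cannot be told apart. The captures carried muscle transcripts in both layers. Myh13, the myosin of extraocular muscle, lay between 9693 and 14213 in the global and between 11055 and 16421 in the orbital captures.

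The oxidase passes electrons from cytochrome c to oxygen and pumps protons across the inner mitochondrial membrane. Its catalytic core is encoded in mitochondrial DNA, and the nuclear subunits surround it and adjust its activity. Cox6a2, Cox7a1 and Cox8b are the heart and skeletal muscle forms, expressed in striated muscle, and Cox6a1, Cox7a2 and Cox8a are the liver-type forms, found in most tissues. Cox4i1 is the common form of subunit 4, and Cox4i2 is the form known from lung and from cells at low oxygen. The comparison asks whether the layers, which differ in fibre types and mitochondrial content, differ in these isoforms.

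The liver-type subunits Cox6a1 and Cox8a had more transcript in the orbital than in the global layer, and the call for Cox8a depended on single captures. Neither their muscle-type partners Cox6a2 and Cox8b nor the Cox7a2/Cox7a2l2 probe set passed the test. No isoform ratio passed between the layers after adjustment, so a difference between partners was not shown. Of the 8 probe sets, all above the filter on dim signal, 2 rose, 0 fell and 6 did not pass at an adjusted p under 0.05 (limma with Benjamini-Hochberg adjustment over all tested probe sets). Over the whole array, 3.91% of 9520 tested probe sets were called higher in the orbital layer, 3.50% lower and 7.41% in either direction. The median log2 difference, orbital minus global, was 0.27 over the 8 and 0.024 over all tested probe sets. The 2 that rose were also the only ones of the 8 whose layers did not overlap, against 14.1% of all tested probe sets in either direction and 7.31% with every orbital capture on top. All 8 were above the highest bacterial control probe set, which has no matching RNA in the tissue, on all 8 arrays.

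Cox6a1 rose by the larger amount. Its intensity, in the authors' linear units scaled per array, was 354, 284, 278 and 313 in global captures 1 to 4 and 517, 483, 403 and 507 in orbital captures 1 to 4. The lowest orbital capture thus lay above the highest global capture. The mean was 478 ± 51.6 (SD, n = 4) in orbital and 307 ± 35.0 in global captures. This is a log2 difference of 0.64 ± 0.13 (SE, n = 4 per layer, adjusted p = 0.0105), or 1.55-fold with a 95% interval of 1.27 to 1.90. On leaving out any 1 capture it stayed under 0.05, with an adjusted p between 0.0100 and 0.0370.

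Cox8a, the small liver-type subunit 8, had 1799, 1813, 1986 and 2048 in global captures 1 to 4 and 2502, 2613, 2284 and 3148 in orbital captures 1 to 4. These ranges also did not overlap. The log2 difference was 0.46 ± 0.13 (SE, n = 4 per layer, adjusted p = 0.0490), or 1.37-fold with a 95% interval of 1.13 to 1.66. This call lay just under the threshold. Removing any single capture except orbital capture 3 ended it, with adjusted p-values from 0.0666 without global capture 4 to 0.133 without global capture 1. It was also lost without the filter on dim probe sets (0.0945) and with the variance estimated without an intensity trend (0.0982).

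**Figure D1:**
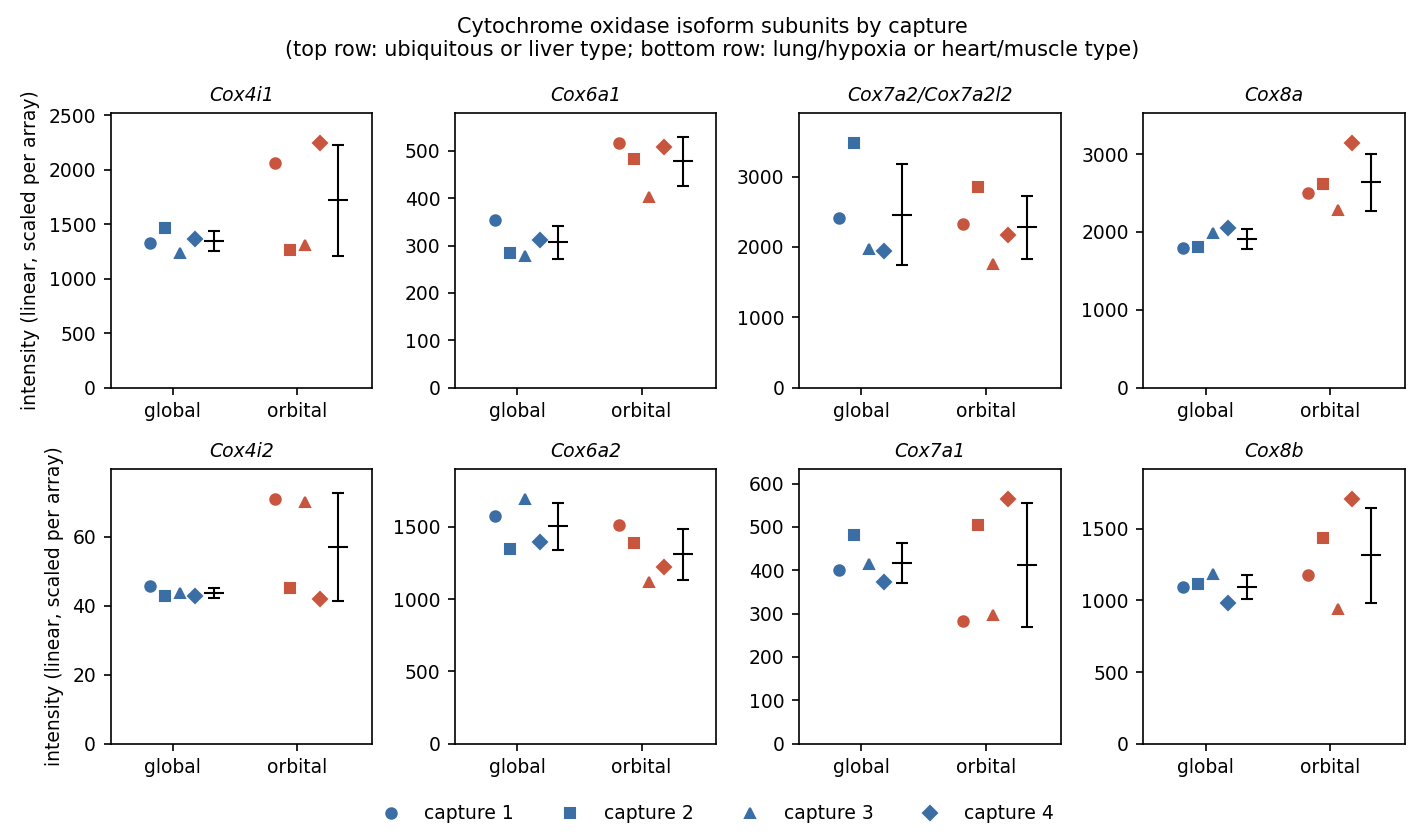
Intensity (linear scale, y axis) of the 8 probe sets in each capture of the global (blue) and orbital (red) layer, with 1 marker shape per capture number, which does not pair captures across layers, and the mean ± SD in black. Cox6a1 and Cox8a are the panels in which the layers do not overlap, and Cox4i1, Cox4i2, Cox7a1, Cox8a and Cox8b spread more widely in the orbital captures.

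Cox4i1, the common form of subunit 4, did not pass. It had 1324, 1460.2, 1233 and 1367 in global captures 1 to 4 and 2061, 1264, 1305 and 2246 in orbital captures 1 to 4. Orbital captures 1 and 4 were above every global capture, and orbital captures 2 and 3 lay within the global range. The layers differed by 0.31 ± 0.18 (log2, adjusted p = 0.363), with a 95% interval from -0.088 to 0.70, so a rise as large as that of Cox6a1 lies inside it.

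The Cox7a2/Cox7a2l2 probe set had 2419, 3484, 1975 and 1948 in global captures 1 to 4 and 2330.3, 2851, 1760 and 2172 in orbital captures 1 to 4. Global capture 2 was the highest and orbital capture 3 the lowest of all, and the other captures of the layers were intermixed. The log2 difference was -0.088 ± 0.195 (adjusted p = 0.840, 95% interval -0.51 to 0.33). Its sign turned on leaving out global capture 2 (0.094) or orbital capture 3 (0.029).

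Among the heart and muscle forms, Cox6a2 had 1575, 1349, 1695 and 1393 in global captures 1 to 4 and 1513, 1389, 1118 and 1220 in orbital captures 1 to 4. Orbital captures 3 and 4 were below every global capture, and orbital captures 1 and 2 lay among them. On the log2 scale the layers differed by -0.20 ± 0.13 (adjusted p = 0.420). Its 95% interval, -0.49 to 0.086, does not reach the estimate for Cox6a1.

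Cox7a1, the muscle form of subunit 7a, had 400.3, 481, 415 and 373 in global captures 1 to 4 and 284, 504, 296 and 565 in orbital captures 1 to 4. Orbital captures 1 and 3 lay below and orbital captures 2 and 4 above all global captures, so the orbital captures enclosed the global range. The log2 difference was -0.079 ± 0.211 (adjusted p = 0.870, 95% interval -0.53 to 0.38), and it turned positive on leaving out orbital capture 1 (0.077) or 3 (0.057).

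Cox8b, the muscle form of subunit 8, had 1096, 1115, 1186 and 983 in global captures 1 to 4 and 1176, 1433, 943 and 1710.4 in orbital captures 1 to 4. Orbital captures 2 and 4 were above every global capture, capture 1 lay within their range and capture 3 was the lowest of all. The log2 difference was 0.23 ± 0.17 (adjusted p = 0.464, 95% interval -0.13 to 0.59). The estimate for Cox8a, 0.46, lies inside this interval.

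Cox4i2, the form known from lung and low oxygen, was dim in all captures. Its intensity was 45.8, 42.8, 43.6 and 42.7 in global captures 1 to 4 and 71.0, 45.2, 70.0 and 41.8 in orbital captures 1 to 4. Orbital captures 1 and 3 stood above all others, and orbital captures 2 and 4 were at the global level. The highest bacterial control lay between 17.7 and 41.5 over the 8 arrays, and on global capture 4 it was 41.5, just under Cox4i2. The log2 difference was 0.33 ± 0.24 (adjusted p = 0.470, 95% interval -0.19 to 0.86).

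The spread among captures of 1 layer was itself uneven. In the global captures the SD of log2 intensity was 0.046 for Cox4i2, 0.094 for Cox8a, 0.10 for Cox4i1 and 0.11 for Cox8b, against a median of 0.25 over all tested probe sets. In the same order these were 0.40, 0.20, 0.43 and 0.37 among the orbital captures, where the median of all was 0.23. Cox7a1 had 0.15 among global and 0.51 among orbital captures, the latter as large as or larger than that of 93.2% of tested probe sets. Cox7a2/Cox7a2l2 went the other way, with 0.39 among global and 0.29 among orbital captures. Cox6a1 had 0.16 in both layers, and Cox6a2 had 0.15 among global and 0.19 among orbital captures. The order of the orbital captures was shared by some members and not by others. Cox8a and Cox8b were both highest in capture 4, then 2, 1 and 3. Capture 3 was also the lowest orbital capture for Cox6a1, Cox6a2 and Cox7a2/Cox7a2l2. Cox7a1 was high in captures 2 and 4, Cox4i2 in captures 1 and 3, and Cox4i1 in captures 1 and 4. Signal at the 3′ end of Gapdh over that at its 5′ end, a measure of shortened RNA, was 6.33, 5.81, 12.9 and 8.64 in orbital captures 1 to 4. It lay between 5.35 and 6.47 in the global captures. The same measure for actin was 7.87, 9.16, 8.32 and 8.37 in orbital captures 1 to 4 and between 7.69 and 10.7 in the global captures. Neither passed between layers (permutation p = 0.114 for Gapdh and 0.543 for actin). The part of either measure in these spreads was not tested. Whether the spread differs between layers was not tested.

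The isoform ratio within a capture was taken as log2 of the muscle-type (or, for subunit 4, Cox4i2) over the other form. Probe sets differ in how strongly they bind, so the ratio has no absolute scale and only its change between captures is read. For Cox6a2 over Cox6a1 the log2 ratio was 2.15, 2.25, 2.61 and 2.15 in global captures 1 to 4 and 1.55, 1.52, 1.47 and 1.26 in orbital captures 1 to 4. Every orbital capture was below every global capture. The layers differed by -0.84, so the ratio in the orbital layer was 0.560 times that in the global layer (p = 0.0286, two-sided exact permutation test; 0.114 with Benjamini-Hochberg adjustment over 4 ratios). The unadjusted value is the smallest that 4 against 4 captures allow, and the adjusted one did not pass. With orbital captures 3 and 4 counted as 1 sample the difference was -0.81, and no permutation p is given for that setting. The difference was -0.66 among captures with the code R2 in their title and -1.01 among those with R3, and between -0.88 and -0.73 on leaving out any 1 capture.

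The ratio of Cox8b to Cox8a moved less. Its log2 value was -0.72, -0.70, -0.74 and -1.06 in global captures 1 to 4 and -1.09, -0.87, -1.28 and -0.88 in orbital captures 1 to 4. Global capture 4 lay among the orbital captures, and without it the layers would not overlap. The difference was -0.22 (exact permutation test, two-sided, p = 0.171; 0.343 adjusted over the 4 ratios).

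For the other 2 pairs the layers overlapped and the mean difference was near 0. Cox7a1 over Cox7a2/Cox7a2l2 had a log2 ratio of -2.51 ± 0.45 (SD, n = 4) in orbital and -2.52 ± 0.27 in global captures, a difference of 0.0090 (exact permutation p = 0.943, two-sided). Cox4i2 over Cox4i1 had -4.88 ± 0.63 in orbital and -4.91 ± 0.13 in global captures, a difference of 0.028 (exact permutation p = 0.943, two-sided; 0.943 adjusted for both). The ratio of subunit 4 ranged from -5.71 in orbital capture 4 to -4.20 in orbital capture 3, and the sign of both small differences depended on the scaling of the arrays.

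**Figure D2:**
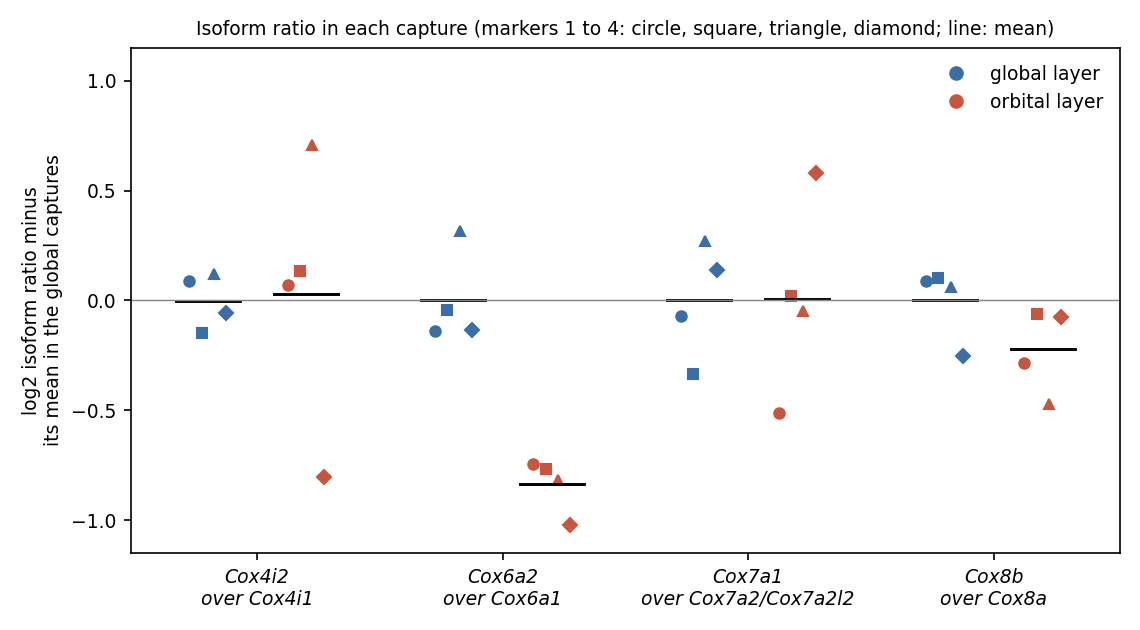
Log2 isoform ratio of 4 subunit pairs in each capture, minus its mean over the global captures (y axis), for the global (blue) and orbital (red) layer, with black lines at the means. For Cox6a2 over Cox6a1 all orbital captures lie below all global captures, at a mean of -0.84, and for the other 3 pairs the layers overlap.

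The sequences upstream of the transcription start are shown for Cox8a and Cox8b, the 1 pair of which a member rose and of which both starts are in the table of RefSeq promoters (build GRCr8). That table matched 6 of the 8 genes, all but Cox4i2 and Cox6a1. The 250 bases before the start of Cox8a are chr1:213833624-213833873 and those of Cox8b chr1:205408274-205408523, both on the minus strand and written 5′ to 3′ toward the gene. Capitals mark matches, on either strand, to the motifs searched. These were the E-box CANNTG, the NRF-1 core TGCGCA, the ETS motif CCGGAAG and the oestrogen-related receptor motif AAGGTCA. The others were the Sp1 motif GGGCGG and a loose form of the MEF2 motif (CTA, any 4 bases, then TAG).
Cox8a: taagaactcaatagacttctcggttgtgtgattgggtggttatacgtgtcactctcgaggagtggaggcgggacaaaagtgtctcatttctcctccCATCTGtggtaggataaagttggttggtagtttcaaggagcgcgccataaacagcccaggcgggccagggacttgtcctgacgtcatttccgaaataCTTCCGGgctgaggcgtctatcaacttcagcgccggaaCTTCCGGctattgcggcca
Cox8b: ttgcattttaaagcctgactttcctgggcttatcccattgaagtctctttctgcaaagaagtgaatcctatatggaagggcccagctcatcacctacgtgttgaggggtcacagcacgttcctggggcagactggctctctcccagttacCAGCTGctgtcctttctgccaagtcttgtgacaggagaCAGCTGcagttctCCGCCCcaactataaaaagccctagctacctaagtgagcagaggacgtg
The Cox8a window holds the ETS motif at 2 places, starting 57 and 19 bases before the start, and 1 E-box, starting 154 bases before it. The Cox8b window holds 0 ETS motifs, 2 E-boxes with the letters CAGCTG, starting 100 and 62 bases before the start, and 1 Sp1 motif. Of 33469 promoters of the same length, 7.27% hold the ETS motif, 65.5% an E-box and 30.5% the Sp1 motif.

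In the other 4 windows the ETS motif was present once (1 place) in Cox7a2 and absent from Cox4i1, Cox6a2 and Cox7a1. The window of Cox6a2 held 4 E-boxes and 1 match to the loose form of the MEF2 motif, which 3.41% of all promoters hold. That of Cox7a2 held 3 E-boxes, and those of Cox7a1 and Cox4i1 held 1 each. The NRF-1 core (6.14% of all promoters) and the oestrogen-related receptor motif (3.99%) were in 0 of the 6. The share of G and C was 64.8% in Cox4i1, 63.2% in Cox7a2, 52.4% in Cox8a, 51.2% in Cox8b, 49.6% in Cox6a2 and 48.4% in Cox7a1. The windows of Cox4i1, Cox7a2 and Cox8a held 31, 23 and 15 CG dinucleotides, and those of Cox6a2, Cox7a1 and Cox8b 5, 4 and 4. A match of letters describes these windows and shows no binding.

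The nuclear subunits of the oxidase that do not come as a muscle and liver pair did not pass in either direction. All 7 were tested (Cox5a, Cox5b, Cox6b1, Cox6c, Cox7b, Cox7c and Ndufa4), with 0 higher, 0 lower and a median log2 difference of -0.12, against 0.024 over all tested probe sets. Cox5a, a subunit that binds thyroid hormone metabolites, had the smallest p, with a difference of 0.38 ± 0.18 (adjusted p = 0.246) and a 95% interval from -0.011 to 0.78, which holds the estimates of Cox6a1 and Cox8a. Cox7b came next with -0.31 ± 0.23 (adjusted p = 0.473) and an interval from -0.81 to 0.18. Differences between subunits were tested as the 4 ratios alone. Of further paralogs, Cox7a2l, a relative of subunit 7a that joins the oxidase to other complexes, differed by 0.23 ± 0.21 (adjusted p = 0.571), and Cox6b2, the testis form of subunit 6b, was under the highest bacterial control in all 8 captures.

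**Figure D3:**
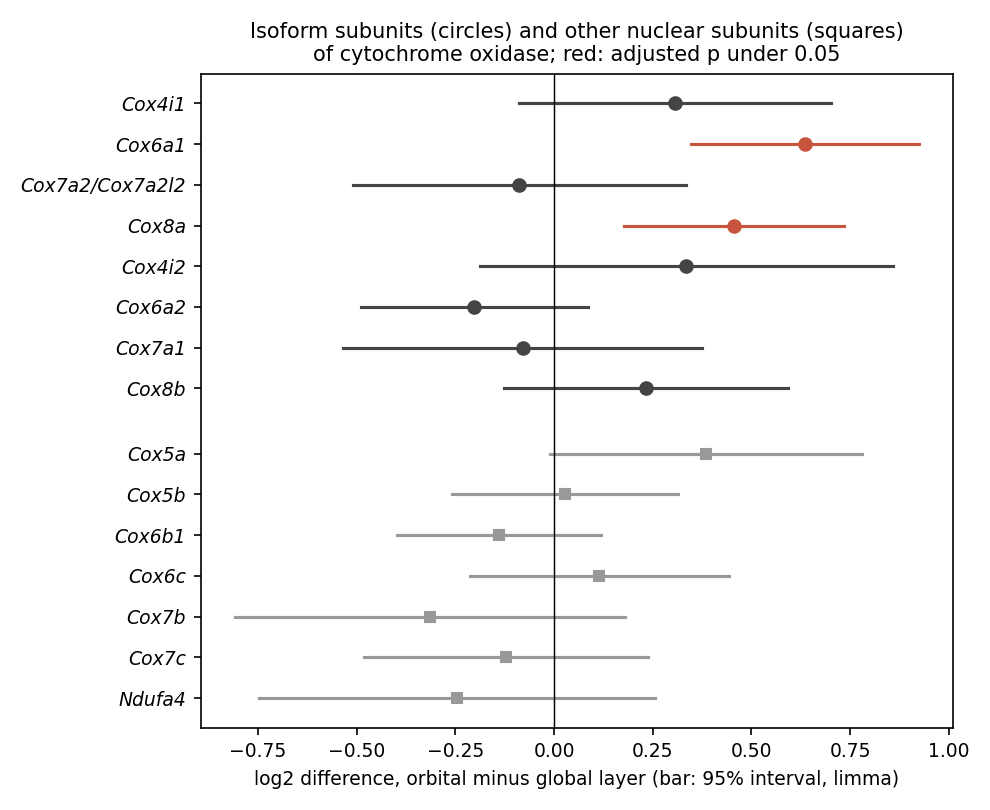
Log2 difference, orbital minus global layer (x axis), with its 95% interval from limma for the 8 isoform probe sets (circles) and 7 other nuclear subunits (squares). Only Cox6a1 at 0.64 and Cox8a at 0.46, in red, passed an adjusted p of 0.05, and the intervals of all other subunits in the plot cross 0.

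Of 29 genes that assemble the oxidase or supply its haem and copper, 21 had a probe set of their own and 19 were tested. Of these, 1 rose and 1 fell, with a median of -0.093. Over the array 7.41% of tested probe sets were called in either direction, and 7.31% had every orbital capture above every global one. Higd1a, a small mitochondrial protein induced by low oxygen that binds the oxidase, rose. It had 1892, 1888, 1882 and 1703 in global captures 1 to 4 and 2743, 2386, 2320.2 and 2901 in orbital captures 1 to 4, with no overlap (0.49 ± 0.12, adjusted p = 0.0269). Cox20, a chaperone of the mitochondrially encoded subunit 2, fell. It was dim, with 58.4, 44.1, 83.6 and 80.6 in global captures 1 to 4 and 34.3, 35.9, 29.4 and 30.8 in orbital captures 1 to 4 (-0.97 ± 0.26, adjusted p = 0.0367). Every orbital value lay under the filter intensity of 39.4, so Cox20 was tested only because of its global captures. Of the assembly genes that did not pass, Cox15 and Oxa1l were higher in the orbital layer at an unadjusted p under 0.05 (limma). Cox10, Cox19, Fdx1 and Lrpprc were lower at that level. These genes lie outside the rule for named genes and were named after their values were seen. The haem attachment enzyme of cytochrome c, Hccs, differed by 0.33 ± 0.19 (adjusted p = 0.354), and the cytochrome c genes were not analysed here.

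Of 20 regulators of mitochondrial genes, 12 had a probe set, 11 were tested, 1 rose and 0 fell, with a median of 0.038. Of all tested probe sets, 3.91% were called higher and 3.50% lower in the orbital layer, and 7.31% had every orbital capture on top. The 1 regulator that rose was Hif1a, the oxygen-sensitive transcription factor. Its intensity was 415, 351, 417 and 249 in global captures 1 to 4 and 532, 856, 536 and 761 in orbital captures 1 to 4, again without overlap (0.90 ± 0.20, adjusted p = 0.0136). Tfam, the factor that packs mitochondrial DNA, differed by -0.026 ± 0.119 (adjusted p = 0.928). It lies outside the rule for named genes and was chosen after its values were seen.

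Other mitochondrial proteins with a muscle form and a widely expressed form were followed in the same way. Of 6 such genes 5 were tested, 1 rose and 0 fell, with a median of 0.11, where 3.91% of all tested probe sets rose. Slc25a5, the widely expressed ADP/ATP carrier, had 714, 658, 557 and 818 in global captures 1 to 4 and 1279, 1091, 1236 and 1195 in orbital captures 1 to 4. The ranges lay apart with the orbital captures on top, as in 7.31% of all tested probe sets (0.82 ± 0.13, adjusted p = 0.00245). Its partner Slc25a4, the heart and muscle carrier, named here as the other gene of the pair, lay between 9304 and 10695 in the global and between 7764 and 12210.0 in the orbital captures (0.0065 ± 0.159, adjusted p = 0.987). The muscle form Cpt1b and the liver form Cpt1a of the carnitine transferase, also outside the rule, differed by 0.11 and 0.067 (adjusted p = 0.787 and 0.864).

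Some markers of other cell types moved with the layers, where 7.41% of all tested probe sets were called in either direction. Of 3 brown adipocyte genes on the array 1 was tested and rose, Cidea (1.28 ± 0.21, adjusted p = 0.00249), and the sum of the 3 was 417 to 573 in orbital and 179 to 265 in global captures. Without Cidea the sums of the other 2 overlapped, at 18.6 to 68.3 and 12.8 to 46.3. Of these, Ucp1, the defining gene of brown fat, which expresses muscle-type oxidase subunits, was under the highest bacterial control in 5 of 8 captures and never above 28.1. The sum of 6 smooth muscle genes was 322 to 486 in the orbital and 685 to 876 in the global captures, with Myh11 lower in the orbital layer and 3 of the 4 tested not passing. Without Myh11 the sums of the other 5 overlapped, at 228 to 279 and 273 to 405. Tagln was lower at an unadjusted p of 0.011 (limma, 0.0977 adjusted). The sum of 5 photoreceptor genes was 1411 to 2968 in orbital and 307 to 1264 in global captures, with Guca1a the 1 of 4 tested that rose. Without Guca1a the sums of the other 4 overlapped, at 383 to 1609.9 and 36.7 to 923. Of 6 endothelial genes tested 1 rose (Eng), with sums of 944 to 1341 in the orbital and 887 to 1009 in the global captures. Eng was dim in the global layer, at a mean of 32.7 against a filter intensity of 39.4. It was thus tested only because of its orbital captures, and it was under the highest bacterial control in 1 capture. Vwf and Emcn did not pass but were higher in the orbital layer at an unadjusted p of 0.0164 and 0.0462 (limma). Of 4 nerve and Schwann cell genes tested 1 rose (Nefm), with sums of 2447 to 4763 and 1301 to 4493. The part of these cells in the differences of Cox6a1 and Cox8a was not tested.

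The pericyte, fibroblast, blood and immune, and white adipocyte lists had 0 members that passed in limma, and 2 fibroblast genes, Dcn and Lum, had an unadjusted p under 0.05 (0.00426 and 0.027). The 8 pericyte genes, of a cell type known to express Cox4i2, summed to 1764, 2402, 1847 and 2083 in orbital captures 1 to 4 and to between 1790.1 and 2169 in the global captures, and 6 were tested. The part of these cells in the spread of Cox4i2 was not tested. The fibroblast sums were 4847 to 7506 in the orbital and 3554 to 6712 in the global captures, the blood and immune sums 400.3 to 882 and 495 to 1332, and the white adipocyte sums 208 to 324 and 218 to 459. Of 11 skeletal muscle genes tested, 1 rose (Mb, the oxygen store myoglobin, 0.82 ± 0.14, adjusted p = 0.00290) and 1 fell (Ttn, the giant elastic protein titin, -0.70 ± 0.15, adjusted p = 0.00980). Tnni2, Tnnt3 and Ckm did not pass but were lower in the orbital layer at an unadjusted p of 0.0192, 0.0226 and 0.0434 (limma). The sums of the 11 overlapped, at 63393 to 93850 in the orbital and 71163 to 102846 in the global captures. The part of muscle content in the member differences was not tested.

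Likeness of pattern was measured as the root mean square difference of log2 values, each centred on its mean over the 8 captures. The genes nearest to Cox6a1 were Pacsin2, at 0.094, then Plekha8, Ppp6r1 and Irgm2, at 0.099, 0.11 and 0.11. Each of these was higher in the orbital layer, by 0.76, 0.54, 0.69 and 0.61. The genes nearest to Cox6a2 were Cystm1, Smarcd3, Etf1 and Mrps17, at 0.064 to 0.077, and their layer differences, from -0.28 to -0.19, did not pass. Genes chosen for a like pattern over the same captures have a like layer difference by that choice. These names describe the order among 7163 genes and no more.

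**Figure D4:**
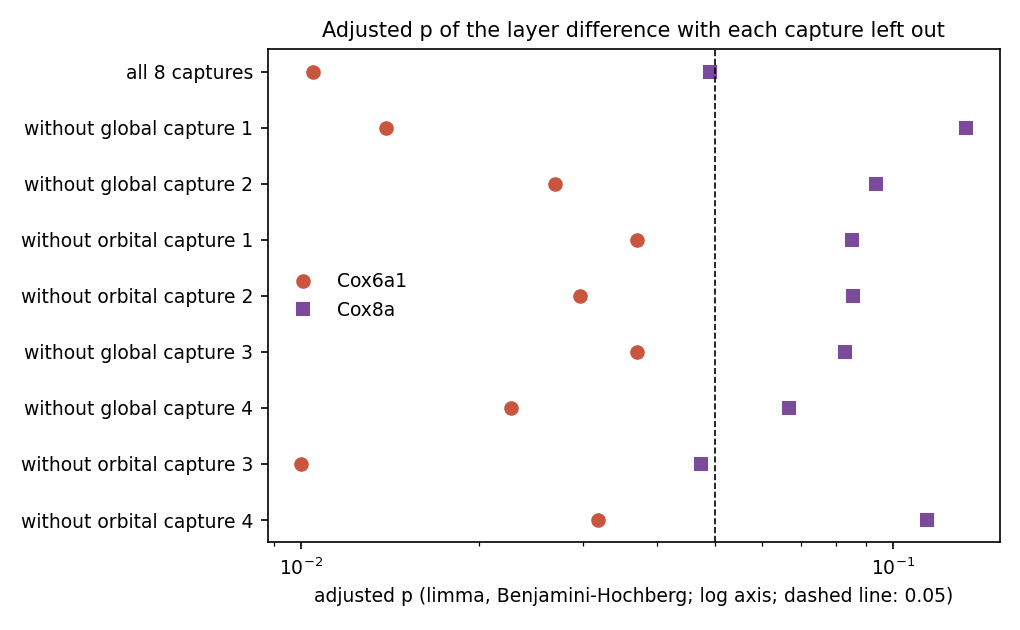
Adjusted p of the layer difference (x axis, log scale, limma with Benjamini-Hochberg adjustment) of Cox6a1 and Cox8a with all 8 captures and with each capture left out. Cox6a1 stays left of the dashed line at 0.05 throughout, and Cox8a does so only with all 8 captures (0.0490) and without orbital capture 3 (0.0474).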

How the data were processed

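RNA of laser-captured tissue was T7-amplified and run on Affymetrix RAE230A arrays (1 colour), per the labels. The authors deposited linear intensities, 1 per probe set and array, and the sources used here do not give the summary software. The authors had scaled the arrays, as the values show by 2% trimmed means within 0.26% of each other, and no further scaling was done. Each level is therefore relative to the rest of its array.

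Captures were grouped by the layer in the labels and numbered in accession order, which pairs nothing. Without the 57 controls among 15923 probe sets, 9520 with a mean log2 at or above the 40th percentile (intensity 39.4) were tested on log2(intensity + 1) with lmFit and eBayes with an intensity trend (limma 3.58.1, R 4.3.3). The threshold was an adjusted p of 0.05. Differences are on this log2 scale. The fit was tested on simulated data. Ratios were compared by exact permutation over captures.

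Gene names came from the platform's older annotation, with a single gene for 12783 probe sets, more than 1 for 312 and no gene for 2771. Genes of a list were taken by their brightest probe set. Members and lists were chosen with earlier results of these data known. Named genes were all members, the members of each pathway list that passed or else the 2 with the smallest p, and the 4 genes nearest in pattern to the muscle-type and the liver-type member with the smallest p. Alternatives were other normalizations, pseudocounts (16, 64), filters and variance settings, the title code (R2 or R3) as a block or alone, orbital captures 3 and 4, with nearly the same title, averaged, and each capture left out.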

Additional observations from a re-analysis of the deposited data

Results flagged for a closer look

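The log2 ratio of Cox8b to Cox8a in global capture 4, -1.058, stood apart from the other 3 global captures, which lay between -0.74 and -0.70. Its gap to the nearest was 0.880 of the range of the 4. This was past a cut-off that about 5% of such groups pass by chance. It was the 1 such value among 24 groups of 4 captures tested. In that capture Cox8b was the lowest and Cox8a the highest of the global captures, at 983 and 2048. For the 8 probe sets, 0 interactions of layer with title code (R2 or R3) passed an adjusted p of 0.05 in limma, and 0 had an unadjusted p under 0.05 (0.148 to 0.994).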

How the results depend on the processing

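The rise of Cox6a1 kept its direction in 20 of 20 alternatives and its call in 18, with differences of 0.55 to 0.71, and lost the call only within captures with the title code R2 (0.65, adjusted p = 0.184) or R3 (0.62, 0.201) alone, where 2 captures stand against 2. Cox8a kept its direction in 20 and its call in 9, with differences of 0.37 to 0.52, of 0.50 (0.211) in R2 alone and of 0.41 (0.408) in R3 alone. Cox4i1, Cox6a2 and Cox8b kept their direction and did not pass in any of 20 (0 of 20), nor Cox4i2 in any of 19, since at the 60th percentile it was filtered out. The fold changes of dim Cox4i2 depend on the pseudocount.

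The number of probe sets called, 705, was 106 with R2 alone, 170 with R3 alone and 461 to 725 on leaving out 1 capture, the lowest without global capture 3. With the title code as replicate block it was 745, and Cox6a1 (adjusted p = 0.0113) and Cox8a (0.0413) kept their calls. The labels do not say what the code marks. Deviations from the layer mean correlated with r of -0.005 to 0.111 between captures of the same code and -0.134 to 0.045 otherwise. With this block the permutation test of a ratio cannot reach 0.05.

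The 2 ratios near 0 turned sign, with the cause not tested. That of Cox4i2 over Cox4i1 was -0.0041 with quantile and -0.0097 with cyclic loess normalization, and -0.040 and -0.14 with pseudocounts 16 and 64, and that of Cox7a1 over Cox7a2/Cox7a2l2 was -0.073 and -0.050 with these normalizations. On leaving out 1 capture they were -0.20 to 0.31 and -0.18 to 0.18. The difference of Cox7a1 was 0.056 in R3 alone and -0.25 to 0.077 on leaving out 1 capture, and that of Cox7a2/Cox7a2l2 -0.20 to 0.094. The ratio of Cox6a2 to Cox6a1 was negative in 16 of 16 alternatives (-1.01 to -0.66), and that of Cox8b to Cox8a in 16 of 16 (-0.31 to -0.14). No gene had a further probe set of its own, so the alternatives on probe set choice were not run.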
